A study of Gallus gallus with 4 samples.

Results

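The step from Hamburger-Hamilton stage HH12 to HH13 was examined in the chick area vasculosa, the extraembryonic ring of the yolk sac in which the first blood vessels form and mature. A gene belonged to the comparison when it reached 1 FPKM (fragments scaled to transcript length and library size) in HH12 or HH13. It was described when its level differed at least 2-fold between those libraries on the log2(FPKM + 1) scale. Of 17017 genes in the table, 11512 were kept, and 1351 lay at least 2-fold apart. The HH13 library was higher for 1004 of the genes kept (8.72%) and lower for 347 (3.01%). RNA sequencing was done on dissected area vasculosa of incubated chick embryos at HH10, HH11, HH12 and HH13, with 1 library for each stage. All groups are unmanipulated tissue as far as the labels say. The breed, the sex and the number of embryos behind each library are not stated in the labels. No difference below has a replicate check, no standard deviation can be given, and no p-value was computed. Each value is a level in a bulk sample, in which fewer cells of a type and less RNA per cell cannot be told apart.

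In the yolk sac, mesodermal cells become endothelium and primitive red cells, and a capillary plexus is then remodelled into arteries, capillaries and veins. Remodelling is known to involve Notch signalling and arterial and venous identity in the endothelium, gap junctions between endothelial cells, a basement membrane, and the recruitment of smooth muscle and pericytes, together called mural cells. The mesoderm lies on a yolk sac endoderm that takes up yolk and secretes plasma proteins into the new circulation.

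The label of the step names vessels, and vessel genes were among the higher ones, together with many others. The lists of endothelial receptors, junction genes, endothelial transcription factors, Notch and arterial genes, venous genes and mural genes held 98 distinct genes that were kept. Of these, 44 passed the 2-fold line upward in HH13 and 1 downward, with a median log2 difference of 0.91, against -0.01 over all genes kept. The share that passed upward was 44.9% of these genes, against 8.72% of all genes kept. It was 51.8% in the yolk sac endoderm lists, 40.3% in the matrix lists, 30.2% in the red cell lists and 20.7% over all lists. The lists were chosen with earlier results of these data known, so a high share is not particular to vessel genes. The 98 genes were 0.851% of all genes kept, and the 44 were 4.38% of the 1004 higher genes. They carried 1.05% of the FPKM gained by the higher genes. The lists of yolk sac endoderm genes held 40.6% of that gain, and the lists of red cell genes held 24.4%. The higher genes as a set took 6.08% of the total FPKM in HH12 and 15.6% in HH13. The lower genes took 3.81% and then 1.19%. Both sets were chosen by their HH12 and HH13 levels, so the direction of these changes was set by the choice.

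**Figure D1:**
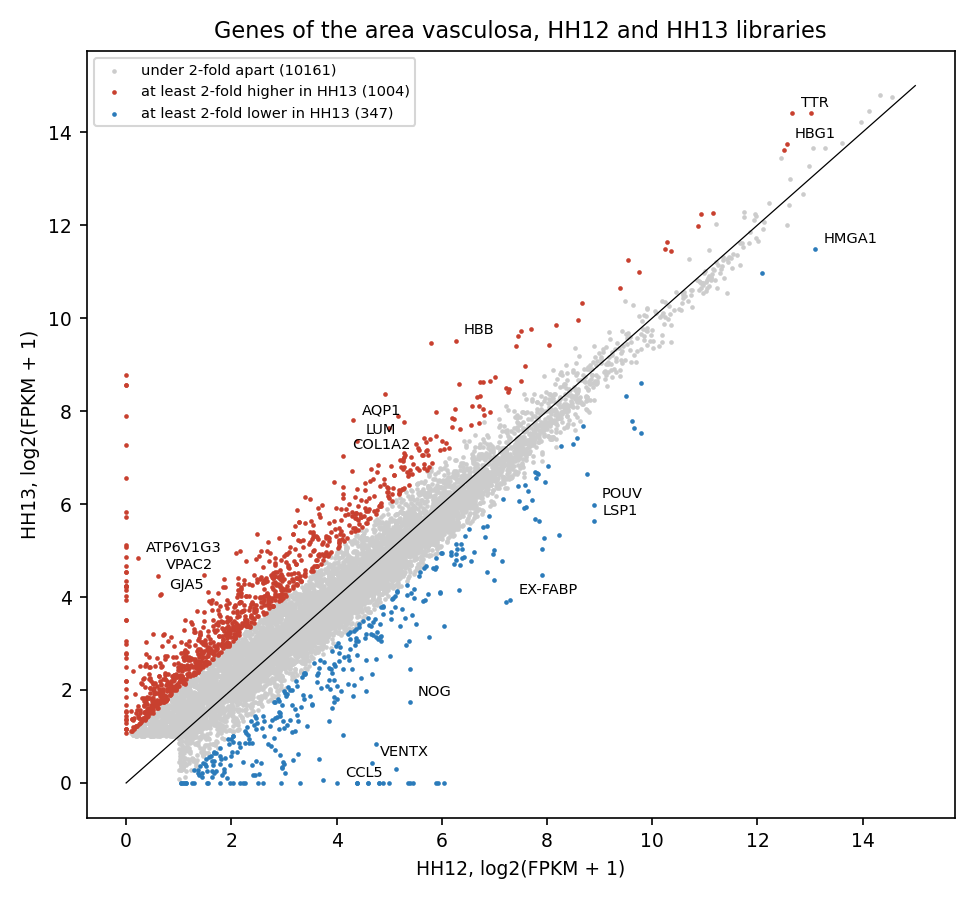
Level of each of the 11512 genes kept in the HH12 library (x axis, log2(FPKM + 1)) against the HH13 library (y axis, same unit), 1 library per stage, with the line of equal level drawn. The 1004 genes higher in HH13 (red) and the 347 lower (blue) lie off the line at all levels of expression, and TTR and HBG1 lie at the top right.

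Most differences were moderate. Of the higher genes, 874 lay between 2-fold and 4-fold, 97 between 4-fold and 8-fold and 33 beyond 8-fold, and the same counts for the lower genes were 260, 59 and 28. The interquartile range of all log2 differences ran from -0.29 to 0.40, and 5716 genes were above 0 against 5796 below. In HH10 and HH11, the libraries the choice of genes did not use, the median level of the higher set was 3.93 and 1.99 FPKM, followed by 3.11 FPKM in HH12 and 11 FPKM in HH13. The higher set was thus lowest in HH11 and highest in HH13. The lower set had medians of 10.3, 16.6, 15.1 and 3.25 FPKM, so it was highest in HH11 and lowest in HH13. The order of HH12 and HH13 in both sets followed from the choice of genes. The median over all genes kept was between 12.3 and 12.9 FPKM in every library.

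The HH12 and HH13 libraries were close in estimated depth. Relative depth was read from the most frequent ratio between libraries among rows under 0.3 FPKM, taken as the step of 1 fragment. It put the depth of HH13 at 1.07 times that of HH12, with HH10 at 0.91 times and HH11 at 1.33 times. Of the 940 such rows of HH12 and HH13, 55.7% lay within 0.5% of that ratio or of a small multiple or fraction of it. The absolute number of reads cannot be had from FPKM alone. The scaling of the deposited values was not given, so the ratio measures depth only if they were scaled to mapped fragments. The FPKM of all rows summed to 833686 in HH12 and 889136 in HH13, and ribosomal RNA rows took 1.03% and 1.49% of it. Mitochondrial rows took 16.8% and 19.4%. Rows on the female-specific W chromosome summed to 52.3 FPKM in HH12 and 44.9 FPKM in HH13, but to 0.03 FPKM in HH10. Genes on chromosome Z, 517 in all, were higher in 6.96% of cases and lower in 2.90%, near the shares over all genes.

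Endothelial surface genes were mostly higher in HH13. Of the 25 genes kept from the list of endothelial receptors and surface proteins, 17 passed the 2-fold line in HH13 and none was lower, with a median log2 difference of 1.30. Each list count from here on is to be read against the shares over all genes kept, 8.72% higher and 3.01% lower. All values that follow are FPKM in the order HH10, HH11, HH12 and HH13, and every difference is that of HH13 against HH12 on the log2(FPKM + 1) scale. Genes beyond those taken by the naming rule are examples chosen after their values were seen. VWF, which encodes von Willebrand factor, was at 0.33, 0.09, 1.45 and 8.51 FPKM, a difference of 1.96. CD93, a receptor of the endothelial surface, was at 8.45, 3.07, 7.23 and 29.2 FPKM, a difference of 1.87. Both were at their highest in HH13, and CD93 was lowest in HH11. PLVAP, which forms the diaphragms of endothelial fenestrae and caveolae, was at 7.14, 4.56, 10.7 and 38.2 FPKM, a difference of 1.74. STAB2, a scavenger receptor of sinusoidal endothelium, was at 3.66, 1.97, 3.46 and 13.9 FPKM, also a difference of 1.74. ENG, the endoglin co-receptor for TGF-beta ligands, was at 7.07, 2.71, 5.90 and 20.2 FPKM, and its partner receptor ACVRL1 was at 0.82, 0.34, 0.62 and 3.69 FPKM. Their differences were 1.62 and 1.54, and both were highest in HH13.

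The receptors for the main vascular growth factors lay near the 2-fold line. KDR, the main VEGF receptor, was at 6.48, 1.97, 3.74 and 8.25 FPKM, a difference of 0.96. On the log2(FPKM + 1) scale this was just short of the 2-fold line, although the plain FPKM values were more than 2-fold apart. FLT1, another VEGF receptor that also acts as a decoy, was at 2.43, 1.24, 2.68 and 8.06 FPKM, a difference of 1.30. The angiopoietin receptor TEK was at 3.75, 1.44, 4.14 and 9.40 FPKM, a difference of 1.02, and TIE1 was at 4.36, 3.13, 4.52 and 12.3 FPKM, a difference of 1.27. KDR in HH13 was thus only a little above its HH10 level, while FLT1, TEK and TIE1 were at more than their HH10 level. The semaphorin and VEGF co-receptor NRP2 was the most abundant of the list, at 45.6, 46.8, 39.4 and 103 FPKM, a difference of 1.36. APLNR, the apelin receptor, went the other way at 38.0, 38.4, 26.3 and 13.3 FPKM, a difference of -0.93. S1PR1, a receptor for sphingosine 1-phosphate, was also lower, at 13.4, 27.6, 16.4 and 11 FPKM, a difference of -0.53. Neither of these passed the 2-fold line.

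Among the junction genes, 6 of 15 were higher and none lower, with a median of 0.26. GJA5, on chromosome 1 at 91781764 to 91800664 of build galGal4, encodes connexin 40, a gap junction protein of arterial endothelium in mouse. It was at 0.19, 0.02, 0.57 and 15.5 FPKM, a difference of 3.40, the largest of any vessel gene on the lists. GJA1, which encodes connexin 43, was at 25.2, 8.64, 15 and 59.3 FPKM, a difference of 1.92. GJA4, which encodes connexin 37, was at 0.45 FPKM in HH12 and 3.13 FPKM in HH13. The VE-cadherin gene CDH5, which holds endothelial cells together, was at 21.4, 7.25, 13.8 and 40.9 FPKM, a difference of 1.5. ESAM, an endothelial adhesion molecule of tight junctions, was at 10.4, 5.89, 4.06 and 18.4 FPKM, a difference of 1.94. CLDN5, a claudin of endothelium, was at 23.5, 14.6, 22.7 and 57.0 FPKM, a difference of 1.29. Junction genes that many epithelia also use did not reach the 2-fold line: TJP1, CTNND1 and JAM3 had differences of -0.32, -0.23 and -0.31.

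Arterial and venous genes were both among the higher ones. Of 19 Notch pathway and arterial genes, 8 were higher and none lower, with a median of 0.78. NOTCH1, the receptor, was at 10.8, 6.23, 4.18 and 11.3 FPKM, a difference of 1.25. Its endothelial ligand DLL4 was at 1.55, 0.68, 1.49 and 4.75 FPKM, a difference of 1.21. LFNG, a glycosyltransferase that modifies Notch, was at 8.86, 2.95, 3.06 and 9.84 FPKM, a difference of 1.42. NOTCH1 and LFNG in HH13 stood close to their HH10 levels, while DLL4 was above its HH10 level. The arterial ligand EFNB2 was at 6.45 FPKM in HH12 and 6.82 FPKM in HH13, a difference of 0.07. Of 8 venous and lymphatic genes, 5 were higher and none lower, with a median of 1.32. All but APLNR were above 0. APLNR, given above as the apelin receptor, is on this list too, with a difference of -0.93. LYVE1, a hyaluronan receptor of lymphatic and early venous endothelium, was at 0.24, 0.29, 2.34 and 10.05 FPKM, a difference of 1.72. NR2F2, a transcription factor of venous identity, was at 3.76, 1.38, 1.96 and 6.20 FPKM, a difference of 1.28. EMCN, a sialomucin of venous and capillary endothelium, was at 3.66, 1.35, 2.35 and 9.52 FPKM, a difference of 1.65.

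The transcription factors of endothelium were higher by less. Of 17 kept, 3 passed the 2-fold line (NR2F2, ERG and ETS1), none was lower, and the median was 0.69. ERG, an ETS factor that maintains endothelial genes, was at 2.80, 0.73, 2.54 and 7.03 FPKM, a difference of 1.18. ETS1 was at 20.9, 13.8, 11.4 and 26.7 FPKM, a difference of 1.16. LMO2, a partner of TAL1 in blood and endothelial cells, was at 58.7, 13.4, 45.5 and 86.9 FPKM, a difference of 0.92. KLF2, a gene known to respond to fluid flow in endothelium, was at 4.27, 8.51, 8.18 and 5.14 FPKM, a difference of -0.58, and KLF4 had a difference of -0.50. In the list of nitric oxide, arginine and flow genes, 4 of 16 were higher and none lower. Of the 16, 11 were above 0, and the median was 0.32. CAV1, the coat protein of caveolae, was at 0.94, 3.20, 1.54 and 12 FPKM, a difference of 2.36. ASS1, an enzyme of arginine synthesis, was at 39.3, 16.3, 71.8 and 230 FPKM, a difference of 1.67. The flow-responsive genes KLF2, KLF4 and EDN1 (a difference of -0.79) were each lower in HH13 than in HH12. None of them reached the 2-fold line on the log2(FPKM + 1) scale. The part of flow in these differences was not tested.

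**Figure D2:**
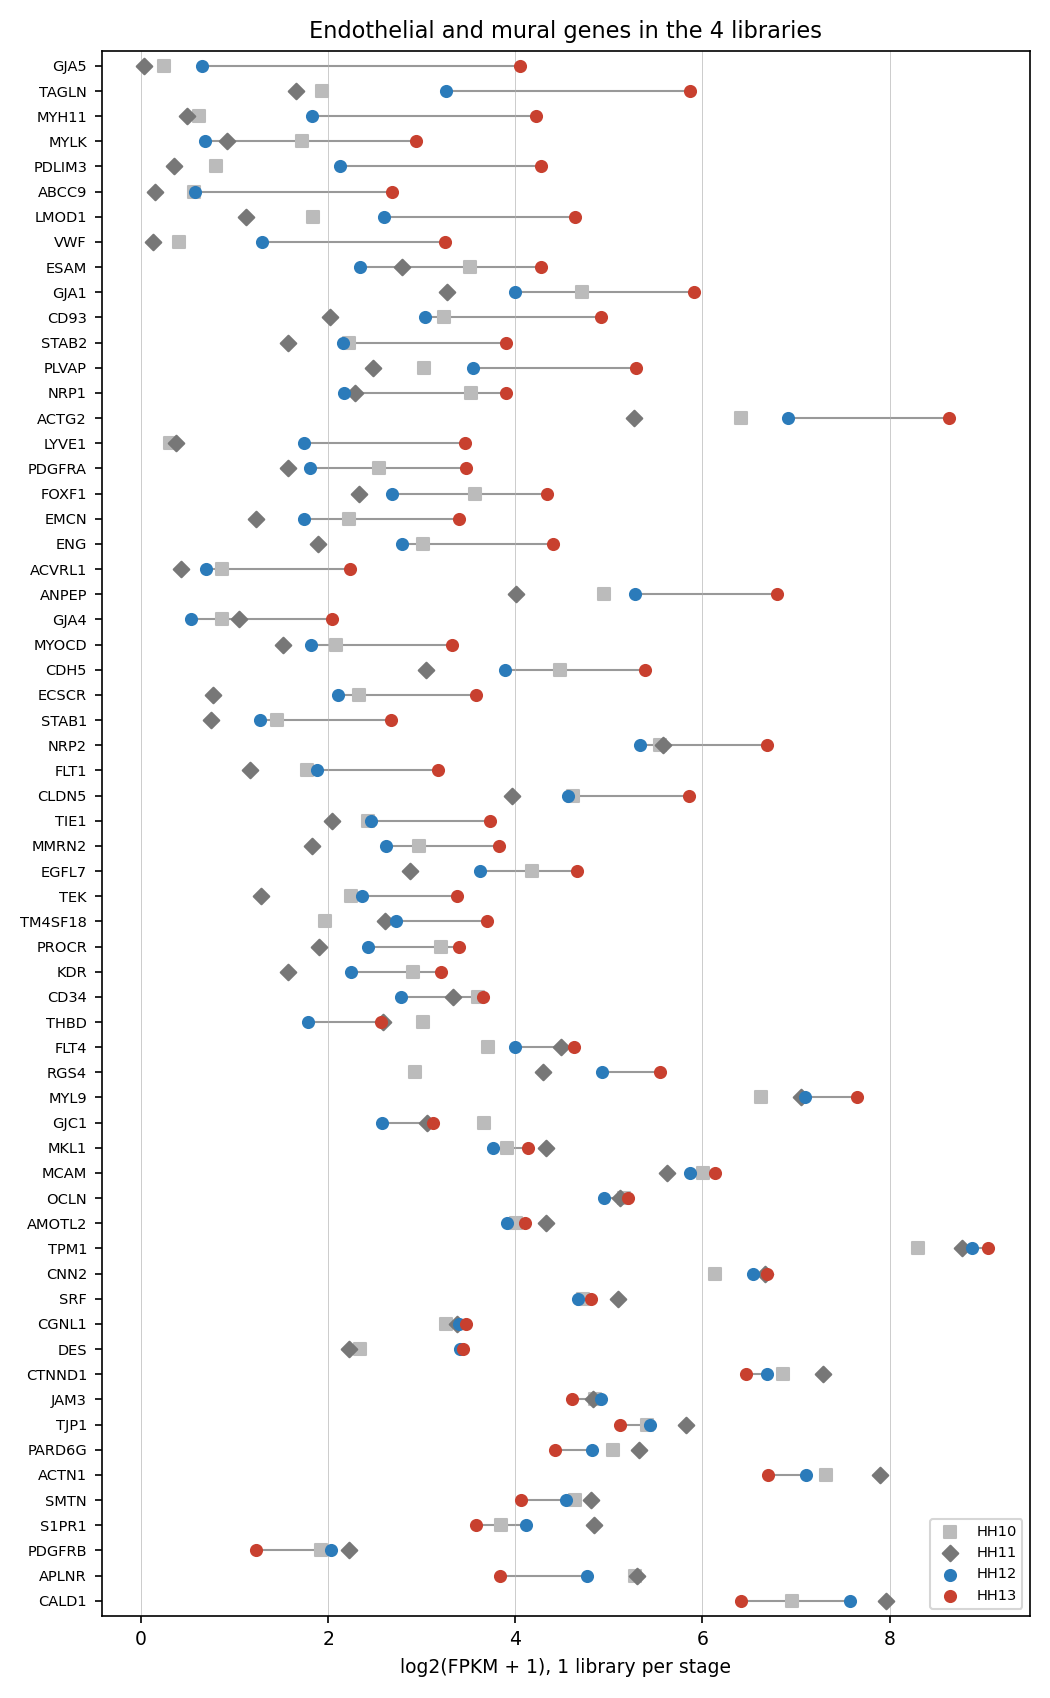
Levels of the endothelial receptor, junction and mural genes with at least 2 FPKM in HH12 or HH13 (x axis, log2(FPKM + 1), 1 library per stage), ordered by the HH13 minus HH12 difference and joined by a line between these libraries. GJA5 has the longest line at the top with a difference of 3.40, TAGLN follows at 2.61, and CALD1 is at the bottom with -1.16.

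Ligands and vasoactive receptors were mixed. Of 27 angiogenic ligands and growth factors, 10 were higher and 2 lower, with a median of 0.90. PDGFD, a PDGF ligand, was at 0.78, 0.59, 0.55 and 4.96 FPKM, a difference of 1.94. CTGF, a matrix-associated growth factor, was at 5.09, 5.75, 8.22 and 31.6 FPKM, a difference of 1.82. VEGFA, the ligand of KDR and FLT1, was at 7.72, 4, 4.69 and 9.64 FPKM, a difference of 0.90. The 2 lower genes were IGF2 and SEMA3C, with differences of -1.43 and -1.12. PDGFB, the endothelial ligand that recruits mural cells in mouse, was at 8.07, 14.8, 6.72 and 3.12 FPKM. Its difference of -0.91 was under the 2-fold line on the log2(FPKM + 1) scale. Of 27 vasoactive peptides and receptors, 9 were higher and 2 lower. VPAC2, a receptor for the peptides VIP and PACAP, was at 0.24, 0.10, 0.52 and 21.0 FPKM, a difference of 3.85, and was near the limit of detection until HH13. Its relative VIPR1 was at 2.21, 2.52, 1.91 and 0.19 FPKM, a difference of -1.28, and the PACAP gene ADCYAP1 was at 3.8 FPKM in HH12 and listed at 0 in HH13. VIPR1 was thus the more abundant of these receptors in HH12 and VPAC2 in HH13. The adrenomedullin receptor pair was higher in both parts: RAMP2 was at 4.42, 2.70, 8.94 and 36.1 FPKM, a difference of 1.90, and CALCRL was at 2.58, 2.81, 2.81 and 9.37 FPKM, a difference of 1.44. The ligand ADM had a difference of 0.10. EDNRB, an endothelin receptor, was at 3.35, 1.22, 3.56 and 15.3 FPKM, a difference of 1.84.

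Smooth muscle genes included some of the larger differences. Of 24 mural genes kept, 12 were higher and 1 lower, with a median of 0.84. TAGLN, an actin-binding protein of early smooth muscle, was at 2.82, 2.15, 8.55 and 57.3 FPKM, a difference of 2.61. MYH11, the smooth muscle myosin heavy chain, was at 0.53, 0.41, 2.56 and 17.6 FPKM, a difference of 2.39. Both were low in HH10 and HH11 and higher in each later library. MYLK, the kinase that activates smooth muscle myosin, was at 2.30, 0.89, 0.60 and 6.67 FPKM, a difference of 2.26. LMOD1, a smooth muscle actin nucleator, was at 2.58, 1.18, 5.05 and 23.9 FPKM, a difference of 2.04. The smooth muscle actin gene ACTG2 was at 83.9, 37.6, 119 and 398 FPKM, a difference of 1.73. MYOCD, the coactivator that drives smooth muscle genes, was at 3.26, 1.87, 2.53 and 9.03 FPKM, a difference of 1.51. The channel subunits of pericytes in mouse, ABCC9 and KCNJ8, had differences of 2.10 and 1.06. PDGFRB, the receptor that defines pericytes, was lower instead, at 2.80, 3.66, 3.09 and 1.34 FPKM, a difference of -0.81. PDGFRA, a receptor of mesenchyme, was at 4.84, 1.97, 2.49 and 10.1 FPKM, a difference of 1.67. CALD1, an actin-binding protein of smooth muscle and other cells, was the lower member at 124, 248, 190 and 84.4 FPKM, a difference of -1.16. Among contractile genes, TPM1 and SMTN were under the 2-fold line, with differences of 0.16 and -0.48, as was PDGFRB.

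Fibrillar matrix genes were the other large group of the vessel wall and mesenchyme. Of 26 fibrillar collagens and small proteoglycans, 14 were higher and 1 lower, with a median of 1.03. COL1A2, a chain of collagen I, lies on chromosome 2 at 23702024 to 23740814 of build galGal4. It was at 26.8, 11.8, 16.5 and 130 FPKM, a difference of 2.91. COL3A1, the chain of collagen III, was at 11.3, 4.44, 30.8 and 198 FPKM, a difference of 2.65. COL5A1 of collagen V, which nucleates collagen fibrils, was at 3.55, 2.01, 1.92 and 16.3 FPKM, a difference of 2.57. All collagen chains named here were lowest in HH11 or HH12 and highest in HH13. LUM and DCN, neighbouring genes on chromosome 1, encode lumican and decorin, which bind collagen fibrils. LUM was at 5.47, 2.63, 20.1 and 164 FPKM, a difference of 2.97, and DCN was at 0.69, 0.76, 3.28 and 29.7 FPKM, a difference of 2.84. Of 26 genes matched by name to the collagen family, 13 were higher and none lower, and 25 were above 0. The exception was COL4A3BP, with a difference of -0.04, which is not a collagen gene despite its name. HAPLN1, a link protein of hyaluronan matrix, was lower at 31.8, 30.8, 19.6 and 7.69 FPKM, a difference of -1.25.

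Basement membrane genes divided by component. Of 32 kept, 9 were higher and 1 lower, with a median of 0.37. NID2, a nidogen that links laminin and collagen IV, was at 11, 8.25, 4.93 and 30.6 FPKM, a difference of 2.41, while its relative NID1 was at 101, 139, 88.7 and 67.3 FPKM, a difference of -0.39. COL18A1 was at 67.0 FPKM in HH12 and 158 FPKM in HH13, a difference of 1.23, and SPARC was at 180 and 400 FPKM, a difference of 1.15. The main chains of collagen IV, COL4A1 and COL4A2, were close to level, with differences of 0.32 and 0.40. FN1, which encodes fibronectin and was the most abundant gene of the list, was at 561, 582, 579 and 829 FPKM, a difference of 0.52. LAMB3 and LAMA3 encode chains of an epithelial laminin, and both were lower without reaching the 2-fold line on the log2(FPKM + 1) scale. LAMB3 was at 13.0, 17.0, 10.2 and 4.73 FPKM, a difference of -0.96. LAMA3 was at 1.11 FPKM in HH12 and 0.23 FPKM in HH13. Of 28 matrix proteases and inhibitors, 7 were higher and 3 lower. ADAMTS15, a proteoglycan-cleaving protease, was at 2.46, 1.44, 1.96 and 14.1 FPKM, a difference of 2.35, and MMP2, a gelatinase, was at 4.36, 1.98, 4.81 and 14.8 FPKM, a difference of 1.44. HTRA1, a serine protease, was at 261, 265, 127 and 31.4 FPKM, a difference of -1.98, and ASTL, an astacin metalloprotease, was at 165, 790, 218 and 49.8 FPKM, a difference of -2.11.

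All 7 globin genes kept were higher in HH13, with a median of 1.33. They include CYGB, which encodes cytoglobin and not a haemoglobin chain. It was at 4.38 FPKM in HH12 and 21.1 FPKM in HH13, a difference of 2.04, on a locus shared with another row. HBG1 was at 463, 51.3, 6027 and 13730 FPKM, a difference of 1.19, and HBAA was at 729, 182, 5780 and 12477 FPKM, a difference of 1.11. HBB, which lies between HBG1 and HBE in the beta-globin cluster of chromosome 1, was at 7.80, 0.36, 75.9 and 731 FPKM, a difference of 3.25, far beyond its neighbours. Globin genes are similar in sequence, so the division of reads between them is uncertain. AQP1, which lets water cross the membranes of red cells and endothelium, was at 1.10, 0.32, 18.9 and 222 FPKM, a difference of 3.48. SLC4A1, the anion exchanger of the red cell membrane, was at 1.48, 0.63, 37.8 and 129 FPKM, a difference of 1.74. AQP1 and SLC4A1 had the largest differences on the list of red cell membrane and gas exchange genes. Of its 23 genes kept, 5 were higher (21.7%) and 2 lower (8.70%, against 3.01% of all genes kept), with a median of 0.51. The lower ones were SLC2A3 and SLC2A1, with differences of -2.37 and -1.23, and TMOD1 had a difference of -0.99. The list of haem synthesis and iron uptake genes differed by less than the globin genes. Of its 24 genes, 4 were higher (16.7%, against 8.72% of all genes kept), none was lower and the median was 0.49. SLC25A37, the iron carrier of the mitochondrion, was at 9.90, 7.69, 33.1 and 98.0 FPKM, a difference of 1.54. CA2, a carbonic anhydrase, was lower at 762, 122, 430 and 263 FPKM, a difference of -0.71. Of 13 blood cell transcription factors, 1 was higher (MEIS1, with a difference of 1.39), and the list median was 0.53. That share of 7.69% was near the 8.72% of all genes kept. Of 15 thrombocyte genes, 5 were higher (33.3%) and none lower. The thrombocyte marker TUBB1 was at 80.03 FPKM in HH13, with a difference of 0.35, and the 5 higher genes include VWF, which endothelium also makes. Of 12 macrophage and leukocyte genes, 3 were higher (25%), while SPI1, the factor that directs myeloid cells, was at 1.18, 2.52, 4.99 and 3.88 FPKM.

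The genes with a symbol that had the largest gain in FPKM, TTR and APOA1, were among those listed for yolk sac endoderm. Of 24 lipoproteins and carrier proteins, 14 were higher and 1 lower, with a median of 1.30. TTR, which carries thyroid hormone and retinol-binding protein, was at 3627, 1199, 6496 and 21632 FPKM, a difference of 1.74. APOA1, the main apolipoprotein of high-density lipoprotein, was at 7827, 3412, 8331 and 21727 FPKM, a difference of 1.38. Both were lowest in HH11 and highest in HH13, and each gained more FPKM than HBG1. APOB, the structural protein of lower-density lipoproteins, was at 106, 19.3, 109 and 396 FPKM, a difference of 1.86. Of 40 coagulation factors, fibrinogen chains and serpins, 22 were higher and 2 lower, with a median of 1.08. The fibrinogen genes FGA and FGB were at 38.0 and 207 FPKM in HH12 and at 217 and 864 FPKM in HH13, with differences of 2.48 and 2.06. KNG1, the kininogen gene, was at 0.64, 0.06, 0.42 and 8.26 FPKM, a difference of 2.71. F8 was the lower clotting factor, at 4.03, 11.9, 9.25 and 2.69 FPKM, a difference of -1.47. Of 21 yolk uptake receptors, 8 were higher and none lower. CUBN, AMN and LRP2 encode receptor proteins of absorptive epithelia, and their differences were 1.56, 1.48 and 1.16. CUBN was at 43.8, 12.3, 27.5 and 83.3 FPKM, and its partner AMN was at 19.4, 3.40, 25 and 71.4 FPKM. The lysosome genes, by contrast, were level, with 1 of 38 higher, 2 lower and a median of 0.13. The lower lysosome genes were CTSC, a cathepsin at 699, 1052, 782 and 220 FPKM, and MCOLN3, a cation channel at 16.5, 24.6, 15.1 and 2.50 FPKM, with differences of -1.83 and -2.20.

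Most endoderm transcription factors were under the 2-fold line. Of 21 kept, 1 was higher and 5 were lower, 9 were above 0 and the median was -0.10. GATA4, a factor of endoderm and mesoderm, was at 37.9, 68.0, 25.9 and 5.34 FPKM, a difference of -2.09. KLF5, a factor of epithelia and early embryonic cells, was at 43.4, 78.5, 42.0 and 11.3 FPKM, a difference of -1.81. CDX2 was at 112, 159, 115 and 44.8 FPKM, a difference of -1.35. GATA6 was at 83.1, 99.4, 78.2 and 66.4 FPKM, a difference of -0.23, so the GATA factors of endoderm were unequal. CREB3L3, which activates apolipoprotein genes in mouse liver, was at 31.8, 17.2, 49.1 and 79.1 FPKM, a difference of 0.68.

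**Figure D3:**
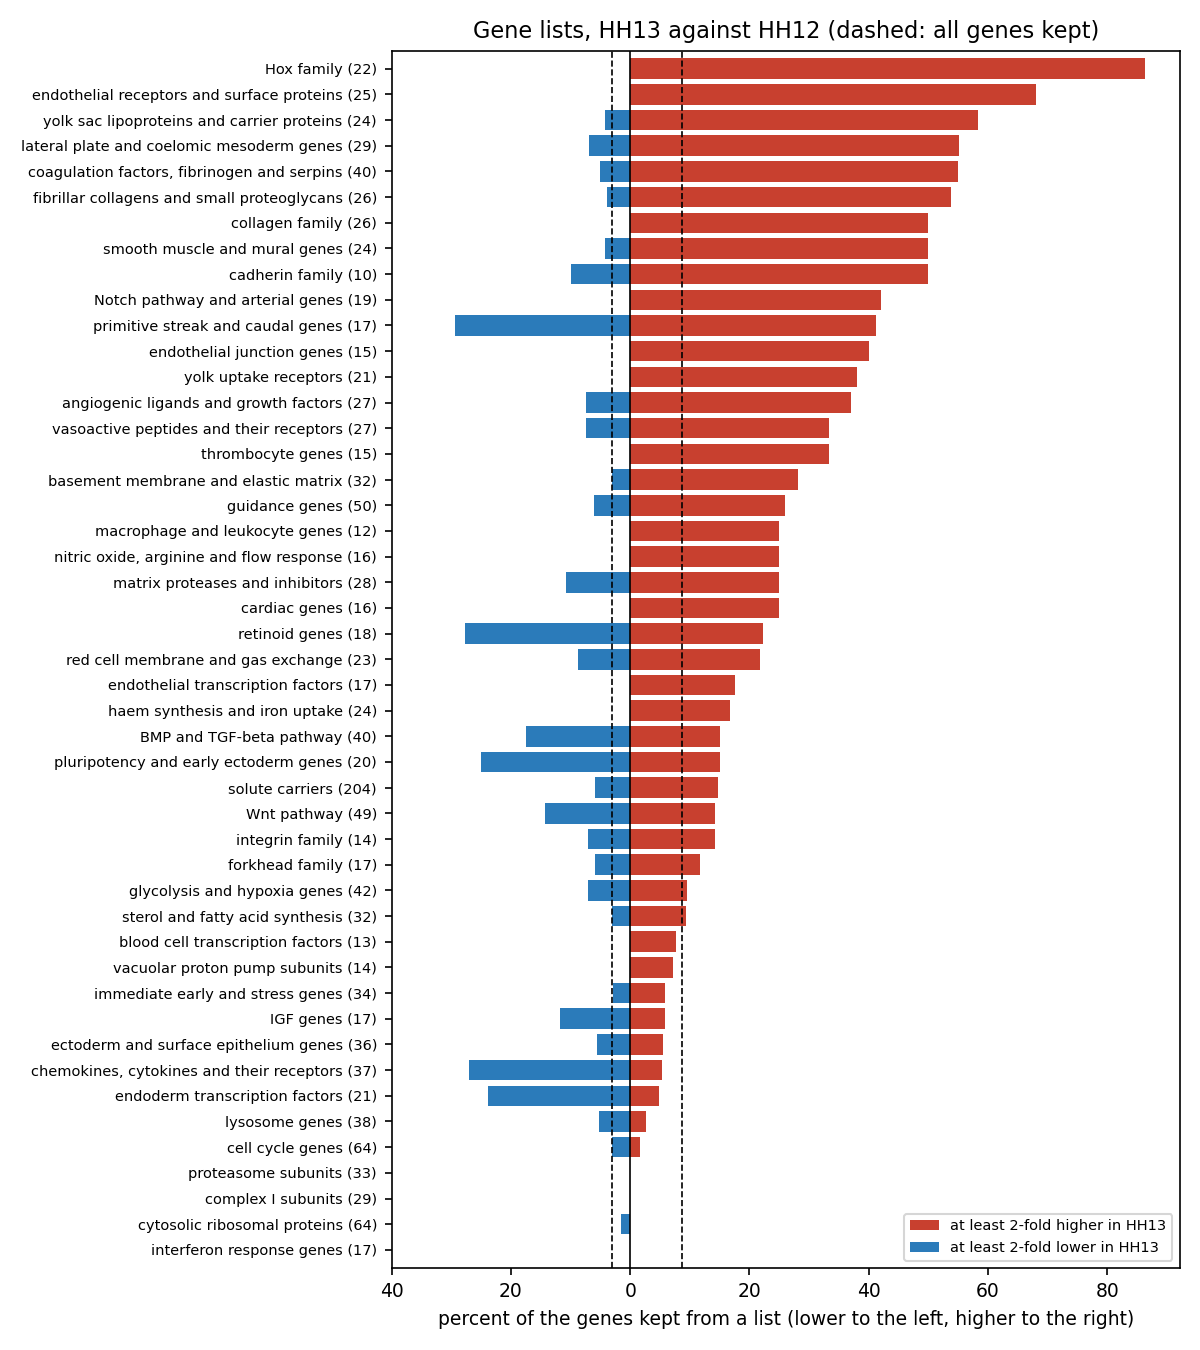
Percent of the genes kept from each gene list of 10 genes or more that were at least 2-fold higher (red, right) or lower (blue, left) in HH13 than in HH12, with the number kept in brackets and dashed lines at the shares over all genes kept, 8.72% and 3.01%. Hox genes, endothelial receptors and yolk sac carrier proteins are at the top, and the blue bars are long for primitive streak, retinoid, chemokine and pluripotency genes.

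Hox genes, which pattern the body axis and the mesoderm along it, were higher almost throughout. Of 22 kept, 19 were at least 2-fold higher, all 22 were above 0 and the median was 1.51. Many of them were under 1 FPKM in HH12, among them HOXA3, HOXA4 and HOXB2 at 0.20, 0.36 and 0.20 FPKM. Such genes were kept only by their HH13 level, so their direction was set by the filter. Their summed level was 119, 49.6, 61.2 and 221 FPKM, lowest in HH11 and highest in HH13. HOXB9 was at 5.31, 3.45, 5.48 and 35.6 FPKM, a difference of 2.50. HOXB4 was at 29.5, 7.77, 8.71 and 48.1 FPKM, a difference of 2.34. HOXC10 was listed at 0 in HH10, HH11 and HH12 and was at 1.92 FPKM in HH13. By position in the clusters, paralogue groups 1 to 3 had a median of 1.04 over 7 genes, groups 4 to 8 of 1.94 over 10 and groups 9 and 10 of 1.55 over 5. None of the 8 genes of groups 11 to 13 in the table passed 0.41 FPKM in any library. By cluster, 3 of 6 genes were higher in A, 8 of 8 in B, 3 of 3 in C and 5 of 5 in D. Every gene kept from C and D was under 1 FPKM in HH12. These genes were kept only by their HH13 level and could not come out lower.

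**Figure D4:**
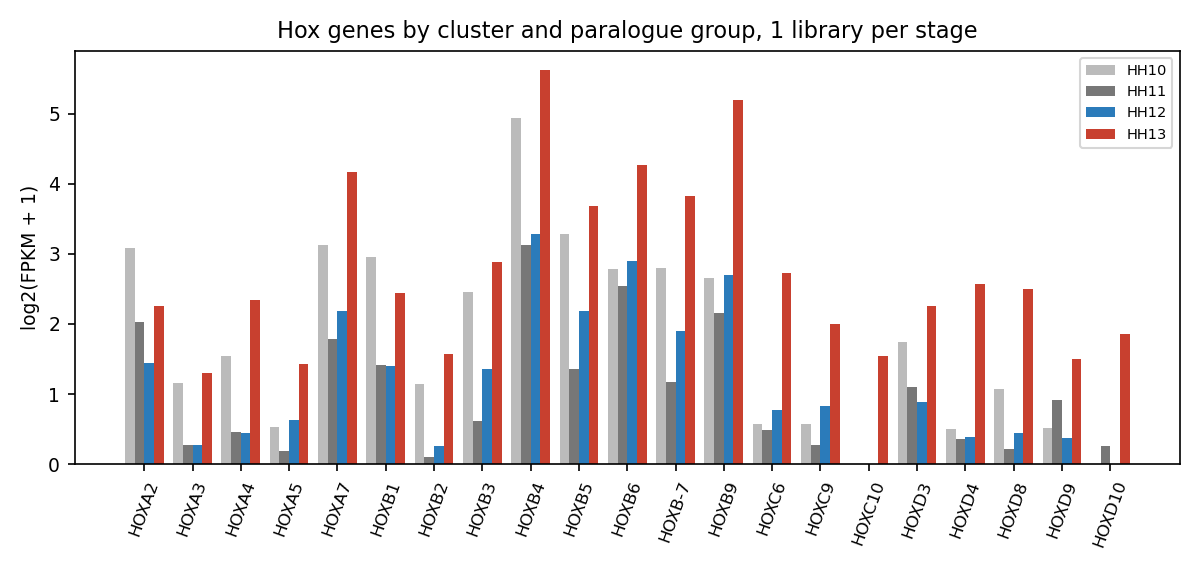
Level of 21 of the Hox genes kept (y axis, log2(FPKM + 1)) in the HH10, HH11, HH12 and HH13 libraries, 1 bar per library, ordered by cluster and paralogue group. The HH13 bar is above the HH12 bar for all 21 genes drawn, by the most for HOXB9 (2.50). For genes under 1 FPKM in HH12 this order was set by the filter.

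Other mesoderm regulators were often higher too. Of 29 lateral plate and coelomic mesoderm genes, 16 were higher and 2 lower, with a median of 1.28. HAND1, a factor of extraembryonic and lateral mesoderm, was at 98.9, 67.2, 105 and 396 FPKM, a difference of 1.90. FOXF1, a factor of splanchnic mesoderm, was at 10.9, 4.03, 5.43 and 19.3 FPKM, a difference of 1.66. PRRX1, a factor of mesenchyme, was at 8.82, 2.12, 1.66 and 8.23 FPKM, a difference of 1.80. SNAI2 was at 14.8, 4.87, 14.5 and 48.7 FPKM, a difference of 1.68, whereas its relative SNAI1 was at 30.2, 53.2, 33.6 and 12.7 FPKM, a difference of -1.34. HAND1 and SNAI2 exceeded their HH10 level in HH13, and PRRX1 returned to about that level. TLX1, a homeobox gene needed for the spleen in mouse, was at 3.79, 1.73, 0.58 and 15.8 FPKM, a difference of 3.42. The list of primitive streak and caudal genes was split, with 7 of 17 higher and 5 lower. On its higher side, FGF8 was at 1.96, 0.10, 0 and 6.92 FPKM, and TBX6 at 4.08, 0.22, 1.07 and 3.83 FPKM. EVX1 was at 4.56, 0.18, 0.58 and 4.62 FPKM, but its locus holds 42 rows, so its value is uncertain. FGF8 and EVX1, and CHRD on the same side, were under 1 FPKM in HH12. These were kept only by their HH13 level, so their direction was set by the filter. FGF8, TBX6 and EVX1 were near or above their HH10 level in HH13 and low between.

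Guidance genes, which steer axons and vessel sprouts, were also more often higher, with 13 of 50 higher, 3 lower and a median of 0.52. The share higher was 26%, against 8.72% of all genes kept, and the share lower was 6%, against 3.01%. UNC5C, a netrin receptor, was at 4.46, 1.41, 2.35 and 16 FPKM, a difference of 2.35. PLXND1, the endothelial semaphorin receptor, was at 6.51, 2.87, 4.63 and 20.01 FPKM, a difference of 1.90. SLIT3, a ligand of ROBO receptors, was at 7.12, 5.72, 6.68 and 20.1 FPKM, a difference of 1.46. UNC5D, another netrin receptor, was lower at 4.78, 5.25, 6.11 and 0.63 FPKM, a difference of -2.13. Of 10 cadherins, 5 were higher and 1 lower. CDH2, the N-cadherin of neural and mesenchymal cells, was at 10.5, 2.85, 1.17 and 10.3 FPKM, a difference of 2.38, and CDH11, a cadherin of mesenchyme, was at 13.3, 5.93, 13.4 and 47.5 FPKM, a difference of 1.75. CDH3, the P-cadherin of epithelia, was at 296, 455, 289 and 149 FPKM, a difference of -0.95.

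Transporters held some of the largest single differences. ATP6V1G3 encodes a subunit of the vacuolar proton pump and lies on chromosome 8 at 2100045 to 2111059 of build galGal4. It was at 0.18, 0, 0.17 and 27.6 FPKM, a difference of 4.61, the largest of the named genes. The other pump subunits kept had differences between -0.47 for ATP6V1C1 and 0.71 for ATP6V1C2, all under 2-fold. Of 204 solute carriers, 30 were higher (14.7%, against 8.72% of all genes kept) and 12 lower (5.88%, against 3.01%), with a median of 0.14. SLC16A13, of the monocarboxylate carrier family, was at 8.62, 3.85, 9.51 and 70.1 FPKM, a difference of 2.76. SLC12A1, a sodium, potassium and chloride carrier of the kidney, was at 0.12, 0.10, 0.81 and 7.86 FPKM, a difference of 2.29. ABCB1LB, an ABC transporter on a locus shared with another row of the table, was at 0.21, 0.66, 1.81 and 21.3 FPKM, a difference of 2.99. The sugar carriers were divided: SLC2A3 was at 114, 310, 141 and 26.5 FPKM, a difference of -2.37, and SLC2A1 was at 235, 540, 221 and 93.6 FPKM, a difference of -1.23. SLC2A2, the glucose carrier of liver, was at 20.8, 17.4, 30.4 and 80.3 FPKM, a difference of 1.37. PGK1, a glycolytic enzyme, was lower at 676, 819, 722 and 321 FPKM, a difference of -1.17. Over the list of glycolysis and hypoxia genes, 4 of 42 were higher (9.52%) and 3 lower (7.14%), with a median of -0.02.

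The remaining genes of the named set with large higher values belong to several roles. PCP4, a calmodulin-binding peptide, was at 16.7, 3.19, 0 and 14.4 FPKM. It was listed at 0 in HH12, which can be a failed estimate, and its HH13 level was below that of HH10. HSD17B2, an enzyme that inactivates oestradiol, was at 3.66, 1.42, 3.51 and 30.9 FPKM, a difference of 2.82. PLA1A, a phospholipase, was at 5.79, 2.42, 4.63 and 39.8 FPKM, a difference of 2.86. Both were high in the HH13 library alone.

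The genes lower in HH13 included regulators of the early embryo. Of 20 pluripotency and early ectoderm genes, 5 were lower and 3 higher, with a median of -0.24. VENTX encodes a homeobox protein and lies on chromosome 6, from 21051932 to 21053666 of build galGal4. It was at 24.0, 38.5, 24.4 and 0.35 FPKM, a difference of -4.23, the largest downward among the named genes. POUV, the chick gene of the POU5F1 class and a pluripotency factor, was at 620, 818, 473 and 62.5 FPKM, a difference of -2.90. NANOG, a pluripotency factor, was at 114, 179, 124 and 29.2 FPKM, a difference of -2.05. All of these were highest in HH11 and lowest in HH13. VRTN, known in pig for its effect on vertebra number, was at 70.3, 97.8, 64.5 and 9.32 FPKM, a difference of -2.67. Other members of the list were level, among them LIN28A at 44.6 FPKM in HH12 and 44.2 FPKM in HH13, and DNMT3B at 41.0 and 43.2 FPKM. SOX2 was listed at 0 in HH12 and was at 1.24 FPKM in HH13.

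**Figure D5:**
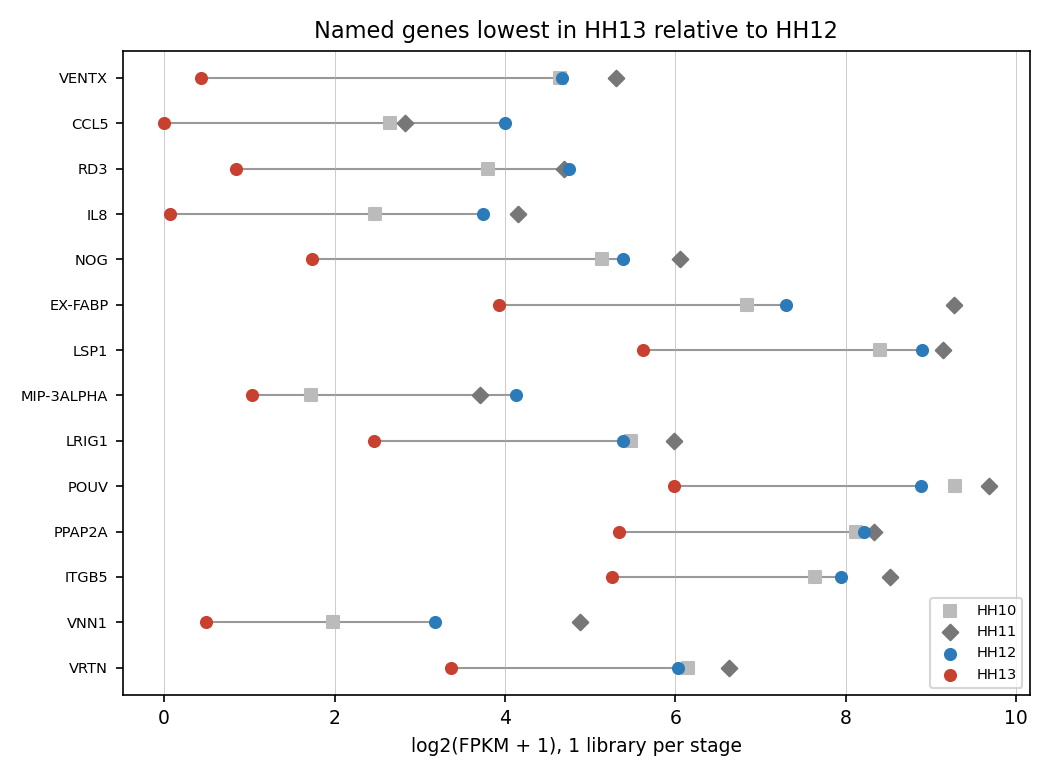
Levels of 14 of the named genes that were lowest in HH13 relative to HH12 (x axis, log2(FPKM + 1), 1 library per stage), with a line from HH12 to HH13. The HH13 point is the leftmost of the 4 libraries for every gene drawn, and the HH11 or HH12 point is the rightmost.

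Signalling genes were found on both sides. NOG, the secreted BMP antagonist noggin, was at 34.3, 65.6, 40.8 and 2.34 FPKM, a difference of -3.65. BMP2, a ligand that noggin binds, was at 25.3, 46.3, 27.2 and 9.68 FPKM, a difference of -1.40. Both were highest in HH11. Over the BMP and TGF-beta pathway, 7 of 40 genes were lower (17.5%) and 6 higher (15%). The shares over all genes kept were 3.01% lower and 8.72% higher. TGFBR3, a co-receptor for TGF-beta, was on the higher side at 15.1, 9.38, 18.5 and 52.2 FPKM, a difference of 1.45. In the Wnt pathway, 7 of 49 genes were lower and 7 higher, 14.3% each way. RSPO3, a secreted enhancer of Wnt signals, was at 35.9, 40.8, 53.2 and 7.83 FPKM, a difference of -2.62, and NOTUM, a secreted Wnt inhibitor, was at 45.8, 61.7, 40.5 and 7.32 FPKM, a difference of -2.32. WNT11, WNT4 and WNT3A were lower by differences of -1.27, -1.36 and -1.20, whereas SFRP1, a secreted Wnt inhibitor, was at 9.55, 6.54, 10.8 and 41.4 FPKM, a difference of 1.85. Secreted Wnt antagonists were thus found on both sides.

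Retinoid genes were divided. Of 18 kept, 5 were lower (27.8%, against 3.01% of all genes kept) and 4 higher (22.2%, against 8.72%). STRA6, the cell surface receptor for retinol-binding protein, was at 94.8, 165, 114 and 22.2 FPKM, a difference of -2.31. CRABP-I, an intracellular carrier of retinoic acid, was at 130, 144, 230 and 48.4 FPKM, a difference of -2.22. RDH10, which oxidises retinol, and ALDH1A1, which makes retinoic acid, had differences of -1.73 and -1.83. RBP4, which carries retinol in plasma and is bound by TTR, was at 1210, 710, 1863 and 4012 FPKM, a difference of 1.11. RBP5, a cellular retinol-binding protein, was also higher, at 36.4, 17.8, 40.5 and 99.2 FPKM, a difference of 1.27. Intracellular carriers were thus found on both sides. ALDH1A2, the retinoic acid enzyme of mesoderm, was at 8.83, 2.04, 1.63 and 4.88 FPKM, a difference of 1.16.

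Of 37 chemokines, cytokines and their receptors, 10 were lower and 2 higher, while 21 were above 0 and the median was 0.06. IL8, a neutrophil attractant, was at 4.57, 16.9, 12.4 and 0.05 FPKM, a difference of -3.67. MIP-3ALPHA, an attractant of lymphocytes and dendritic cells, was at 2.31, 12.1, 16.5 and 1.04 FPKM, a difference of -3.10. CCL5 was at 5.29, 6.08 and 15.1 FPKM and listed at 0 in HH13. Its locus holds 3 rows of the table, so its value is uncertain. LIF, a cytokine, was at 3.49 FPKM in HH12 and listed at 0 in HH13, and SOCS3, a feedback inhibitor of cytokine signals, was at 9.04, 21.9, 14.6 and 4.68 FPKM, a difference of -1.46. CXCL12 was on the higher side, at 4.48, 2.85, 3.15 and 8.74 FPKM, a difference of 1.23, with its receptor CXCR4 at 19.4, 10.4, 17.4 and 32.7 FPKM, a difference of 0.87. None of the 17 interferon response genes was 2-fold apart.

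The other named lower genes included abundant ones. LSP1, an actin-binding protein of leukocytes on a locus shared with another row, was at 337, 566, 478 and 48.3 FPKM, a difference of -3.28. EX-FABP, a chick lipocalin that binds fatty acids outside the cell, was at 114, 617, 156 and 14.3 FPKM, a difference of -3.36. ITGB5, an integrin subunit that binds vitronectin, was at 198, 367, 246 and 37.3 FPKM, a difference of -2.69. Each was highest in HH11 and lowest in HH13. LRIG1, an inhibitor of EGF receptors, was at 43.6, 62.2, 40.8 and 4.50 FPKM, a difference of -2.93. PPAP2A, a lipid phosphate phosphatase, was at 277, 322, 297 and 39.6 FPKM, a difference of -2.88. VNN1, a pantetheinase, was at 2.97, 28.5, 8.05 and 0.40 FPKM, a difference of -2.69. RD3, known in human for its part in photoreceptors, was at 12.9, 24.8, 25.9 and 0.79 FPKM, a difference of -3.91. By loss of FPKM, HMGA1, a chromatin protein, came first at 8687, 5343, 8749 and 2862 FPKM, a difference of -1.61. TMSB4X, an actin-binding peptide, came next at 2763, 4346, 4341 and 2004 FPKM, a difference of -1.11.

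Genes of the dividing cell and of protein turnover mostly differed by little and were lower more often than higher. Of 64 cell cycle genes, 5 were above 0, 1 was at least 2-fold higher and 2 were lower, with a median of -0.33. CDC20, an activator of anaphase, was at 126, 132, 199 and 76.7 FPKM, a difference of -1.36, and CDK1, the mitotic kinase, was at 379, 387, 433 and 259 FPKM, a difference of -0.74. CCND3, a D-type cyclin, was the higher member at 22.2, 21.4, 32.4 and 73.2 FPKM, a difference of 1.15. None of 33 proteasome subunits was above 0, with a median of -0.31 and differences from -0.70 to -0.04. Ribosomal protein genes had a median of -0.19 over 64, and complex I subunits of the respiratory chain a median of -0.00 over 29.

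The marker genes of each cell type were summed. Of 6 endothelial markers kept, 5 were higher, and their summed level was 69.9, 34.3, 53.0 and 146 FPKM. The 3 mural markers kept summed to 6.15, 6.22, 14.2 and 76.3 FPKM, with 2 of 3 higher. The 5 yolk sac endoderm markers summed to 12814, 5352, 16826 and 47850 FPKM, with 5 of 5 higher. The 4 red cell markers summed to 1194, 234, 11860 and 26363 FPKM, with 3 of 4 higher. Of 6 neural markers, 2 were in the table, TUBB3 and SOX2, with a sum of 34.2, 24.3, 27.6 and 65.1 FPKM. Both were higher, but SOX2 was listed at 0 in HH12 and was kept only by its HH13 level. Heart muscle markers summed to 43.5, 22.8, 19.4 and 17.9 FPKM, although 1 of the 4 kept, TNNI1, was higher. TNNI1 was at 0.98 FPKM in HH12 and 3.94 FPKM in HH13. It was kept only by its HH13 level, as was ACTC1. Somite and skeletal muscle markers summed to 4.65, 0.83, 0.71 and 2.89 FPKM, with MYF5 listed at 0 in HH12 and HH13. The 1 marker of these that was kept, TCF15, was higher, at 0.45 FPKM in HH12 and 2.25 FPKM in HH13. It was kept only by its HH13 level. Surface ectoderm markers summed to 2373, 4433, 4439 and 3712 FPKM, with none 2-fold apart. Macrophage markers summed to 6.23 FPKM in HH12 and 7.77 FPKM in HH13, and thrombocyte markers to 70.3 and 90.5 FPKM. The part of the cell makeup of the dissected tissue in the differences of the Hox, mesoderm, caudal and guidance genes was not tested.

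Close to the 2-fold line, the genes just inside it on the higher side were NMRK2 and KANK3, with differences of 1.0001 and 1.0027, and those just outside were MKP3, PLEKHG1 and RAB11FIP5, with 0.9998, 0.9971 and 0.9938. On the lower side GPC3, FDPS and ORAI1, with -1.0046, -1.0084 and -1.0156, were just inside, and ENDOD1, SRM and SAMHD1, with -0.9996, -0.9992 and -0.9977, were just outside. The share of genes called higher depended on level: it was 5.97% of genes whose larger value was 1 to 2 FPKM, 13.7% at 2 to 5 FPKM and 8.86% at 100 FPKM or more. Of the higher genes, 204 had no symbol, and of the 45 that were listed at 0 in HH12 only 10 had one. Of the 36 lower genes listed at 0 in HH13, 11 had a symbol. In HH12, 263 of the higher genes were under 1 FPKM, and in HH13, 107 of the lower genes were. These were kept by their level in 1 library alone, so their direction was set by the filter. On loci that the table shares between rows lay 155 higher and 41 lower genes, whose values are uncertain. Among those named in this text are EVX1, ANXA6, ALDH1A2, MMP2, PAPPA, KANK3 and FDPS.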

How the data were processed

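The authors deposited a table of FPKM values per gene for 4 libraries, with Ensembl gene identifiers, names and loci, per the file headers. Per the submitters' processing notes they used TopHat2 2.0.8, Cufflinks and Cuffdiff with build galGal4. The versions of the last pair, the annotation release, the scaling and any strand setting were not given in the sources used here. Deposited starts count from 0 and are printed 1 higher. Of 17108 rows, 4683 had no usable symbol and kept their Ensembl identifier, and rows of 77 symbols were summed.

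Genes with at least 1 FPKM in HH12 or HH13 were kept, and log2((HH13 + 1)/(HH12 + 1)) was described at a 2-fold line. This scale understates differences of low genes. With 1 library per stage no test was run, and the authors' p-value and q-value columns were not used. An exact 0 can be a failed estimate, so no fold is given against 0. Relative depth came from ratios of rows under 0.3 FPKM. The fold script was run on simulated data without noise, which checks its arithmetic and not the spread between libraries.

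The genes and the 57 lists were chosen with earlier results of these data known. The naming rule took the 15 largest differences each way with a symbol and 5 FPKM, the 8 largest FPKM differences each way, the most abundant member and 3 largest differences each way of each list, and the genes next to the 2-fold line. Alternatives covered pseudocounts of 0.1 and 5, filters, 3 scalings, the highest row per symbol, a 4-fold line and leaving out sex chromosome and unplaced rows. Promoter motifs and protein sequences were not analysed here. Some genes that the naming rule takes are not reported here. Python 3.11.15 with pandas 2.3.3, numpy 2.4.6 and matplotlib 3.10.9 was used.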

Additional observations from a re-analysis of the deposited data

How the results depend on the processing

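The counts of 1004 higher and 347 lower genes depended most on the pseudocount and the fold line. With a pseudocount of 5 they were 403 and 172, with a pseudocount of 0.1 they were 1506 and 486, and at a 4-fold line they were 130 and 87. Scaling the libraries to the same total FPKM gave 876 and 422 and moved the median difference of all genes from -0.01 to -0.09. With a filter of 5 FPKM there were 724 and 264, and leaving out both sex chromosomes and the unplaced scaffolds 926 and 315. Scaling without globins, ribosomal RNA and mitochondrial rows gave 1007 and 347, and median-of-ratios scaling gave 1011 and 346. The 30 genes named for the largest differences stayed at least 2-fold apart under each alternative that gave them a value. This leaves out the 4-fold line and, for SLC16A13 and PPAP2A, the setting without sex chromosomes and unplaced scaffolds. These genes were picked for the largest differences between the same libraries, so that outcome was largely set by the choice. Of 56 lists with at least 5 genes, 8 had a median of at least 1. None of these 8 had a change of sign, and 7 of them were under 1 under at least 1 alternative. A change of sign occurred in 11 lists, whose medians were at most 0.73 in size. No paired analysis was possible because there is 1 library per stage and no result comes from a test. The absence of replicates limits every value: the spread between embryos of a stage is unknown, and the stage and the library cannot be told apart.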

Other observations

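Several further genes are given here, most of them at least 2-fold apart. Values are FPKM in HH10, HH11, HH12 and HH13, with the HH13 minus HH12 difference in log2(FPKM + 1), and the genes were chosen after their values were seen. MYL4, a myosin light chain of atrial and embryonic muscle, was at 21.8, 19.0, 79.4 and 380 FPKM, a difference of 2.25, while the heart muscle gene TNNT2 was at 23.6, 7.07, 3.79 and 1.97 FPKM, a difference of -0.69. ANXA6, a calcium-dependent membrane-binding protein, was at 8.10, 4.04, 7.97 and 40.1 FPKM, a difference of 2.19. The ANXA6 locus holds 13 rows, so its value is uncertain. ITGA8, an integrin of mesenchyme and smooth muscle, was at 1.14, 0.44, 1.62 and 7.69 FPKM, a difference of 1.73. These 3 higher genes were all at their highest in HH13. IGF2, an insulin-like growth factor, was lower at 16.8, 30.3, 15.6 and 5.18 FPKM, a difference of -1.43. STC2, an inhibitor of the protease that frees insulin-like growth factors, was at 7.59, 16.4, 7.92 and 1.15 FPKM, a difference of -2.05, and that protease, PAPPA, was at 2.57, 2.11, 0.92 and 2.97 FPKM, a difference of 1.05. Among lipid genes, the elongase ELOVL2 was at 0.39, 0.41, 0.66 and 5.61 FPKM, a difference of 1.99, whereas FDPS, of sterol synthesis, was at 298, 339, 409 and 203 FPKM, a difference of -1.01. EGR1, an immediate early gene, was at 4.25, 3.08, 8.08 and 26.4 FPKM, a difference of 1.59, and no other gene of the stress list but CHAC1 was 2-fold higher.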
